A study of Saccharomyces cerevisiae with 47 samples.

Results

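The sites described here were Abf1 motif sites that lay between 2 genes transcribed away from each other, in DNA that serves as the promoter region of both. A site was taken when its centre lay outside every annotated gene of the budding yeast R64 build, with the protein-coding gene to its left on the minus strand and the one to its right on the plus strand. Of 1365 distinct Abf1 sites in the authors' deposited list, 340 met this rule (24.9%, exact 95% interval 22.6 to 27.3). The others included 348 sites between tandem genes, 656 inside protein-coding genes and 17 between convergent genes. Position alone chose the sites, so the deposited score, the number of times a site was listed and its strand were free to be compared. Distance to the start codons was not, since it follows from the position that the rule used. For divergent sites the nearer of 2 start codons was taken, whereas tandem sites have only a downstream start codon.

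Abf1 is an essential sequence-specific DNA-binding protein of budding yeast and one of its general regulatory factors, proteins that bind promoters and chromatin boundaries and help keep nucleosomes off the DNA beside them. Its motif has a conserved block at each end and a spacer of variable sequence between them. In the compact yeast genome many neighbouring genes are divergent, and the DNA between them then carries one nucleosome-depleted region, or a pair of them, from which transcription starts in both directions.

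The study assembled chromatin in a test tube from a yeast plasmid library (46 ug DNA) and recombinant yeast histone octamers (40 ug) by salt gradient dialysis, with no cells and no transcription, and mapped where added factors bound it. The Abf1 pulldowns comprised 5 kinds of reaction with Strep-tagged Abf1 at 50 nM and 2 replicates of each. These held Abf1 with the remodeler INO80, ISW2 or Chd1 at 24 nM, Abf1 with RSC at 12 nM, and Abf1 alone, and 2 further pulldowns without factor served as controls. Another factor, Reb1, whose site list is used for comparison below, was tested at 50 nM in the same kinds of reaction. Its pulldowns had the same remodeler concentrations, number of replicates and controls. The series also held 23 input samples. Chromatin was fixed for 5 min in 0.05% formaldehyde before MNase digestion, and pulldown fragments of 38 to 90 bp were kept. The deposited list carries no sample, so read depth, replicate spread and the effect of each remodeler cannot be read from it. The intervals below cover counting error over sites only, and sites are not replicates of an experiment.

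The 340 sites fell into 288 divergent regions of 1527 (18.9%), and so 576 of the 3054 genes that face such a region shared it with a site. They lay on all 16 nuclear chromosomes, with the most on IV (52 sites) and XV (38) and the fewest on III (7) and I (8). By the series text, the DNA that was reconstituted came from chromosomes V to IX. On these 5 lay 74 of the 340 sites (21.8%, 17.5 to 26.5) and 361 of the 1527 regions (23.6%, 21.5 to 25.9). Most of the sites were thus on chromosomes other than those named for the reconstituted DNA. How sites there came to be listed is not stated.

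The sites kept a distance from both start codons. The nearer start codon was a median of 181 bp from the site centre (quartiles 136.5 and 287.5, range 0.5 to 2984.5), and the farther one a median of 438.5 bp (285.25 and 654.75). The number of sites was 7 within 50 bp of the nearer start codon, 6 from 50 to 100 bp, 99 from 100 to 150 bp and 80 from 150 to 200 bp. The count thus stepped up at about 100 bp, and past 200 bp it fell to 39 and then 28 per 50 bp. Only 13 sites (3.82%, 2.05 to 6.45) were under 100 bp from a start codon. The farther start codon showed 0 sites within 100 bp and 20 and 38 in the same 2 bins from 100 to 200 bp. The step at about 100 bp was not particular to these sites. By the same bins up to 200 bp, tandem Abf1 sites numbered 7, 7, 61 and 92 from their downstream start codon. Reb1 sites between divergent genes numbered 5, 5, 92 and 89 from the nearer one.

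**Figure D1:**
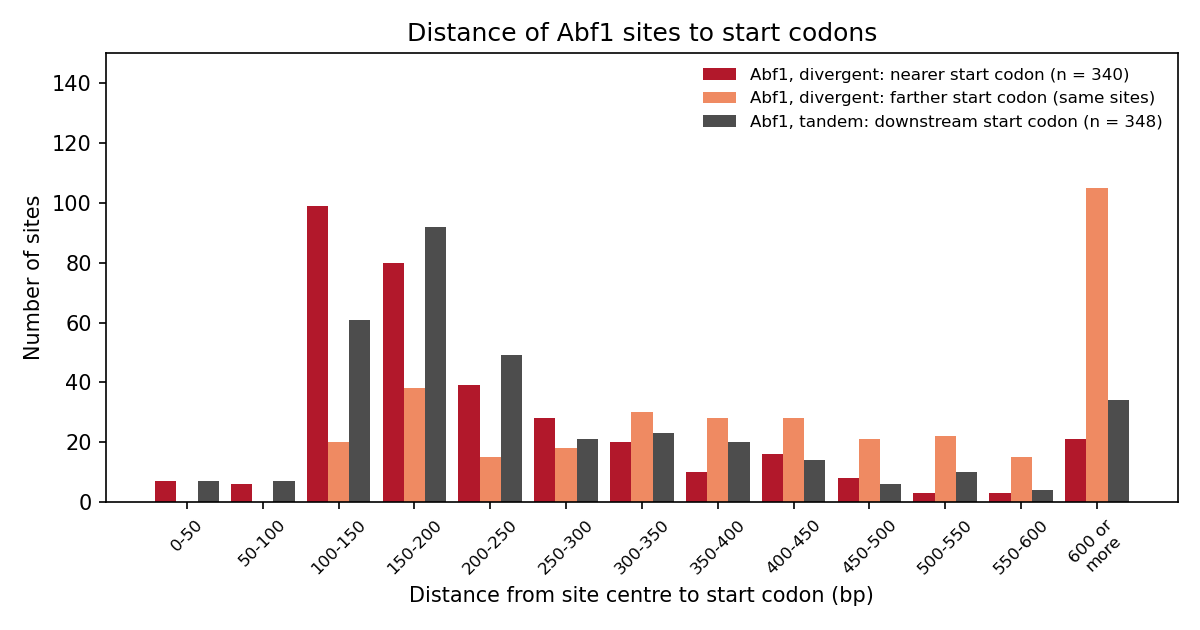
Number of Abf1 sites (y axis) by distance in bp from the site centre to the start codon (x axis), for the nearer and the farther start codon of the 340 sites between divergent genes and the downstream start codon of 348 sites between tandem genes. The bars for the nearer start codon step up to 99 sites at 100 to 150 bp, after 6 at 50 to 100 bp.

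Between 100 and 200 bp from the nearer start codon lay 179 of 340 sites (52.6%, 47.2 to 58.1). Of the Reb1 sites chosen by the same rule, 181 of 342 (52.9%, 47.5 to 58.3) lay in this window. Reb1 is another general regulatory factor, tested in the same study. The difference was -0.277 percentage points (-7.73 to 7.18; adjusted p = 1, two-sided Fisher's exact test). Of the Abf1 sites between tandem genes, 153 of 348 (44%, 38.7 to 49.4) lay in the window upstream of their one downstream start codon. This was 8.68 points below the divergent sites (1.21 to 16, Fisher's exact test, adjusted p = 0.0403). A divergent site has 2 start codons of which the nearer was taken, and at the farther start codon 17.1% of the sites lay in the window. Divergent and tandem sites were thus not measured alike, and the test cannot separate their difference from this choice. The difference from tandem sites missed the threshold of Fisher's exact test with a window of 50 to 250 bp (5.82 points, adjusted p = 0.138) and on chromosomes V to IX (11.2 points, 0.519). It also missed it, by the same exact test, among sites in at least 2 rows (7.43 points, adjusted p = 0.172) and those at or above the median score (10.6 points, 0.0502).

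The reach of a site to both genes varied. Within 200 bp of both start codons lay 58 sites (17.1%, 13.2 to 21.5), and within 500 bp of both lay 198 (58.2%, 52.8 to 63.5). A further 115 sites (33.8%) were within 500 bp of 1 of the start codons only, and 27 (7.94%, 5.30 to 11.3) were farther than 500 bp from both. The majority of the sites therefore lay within 500 bp upstream of both genes.

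**Figure D2:**
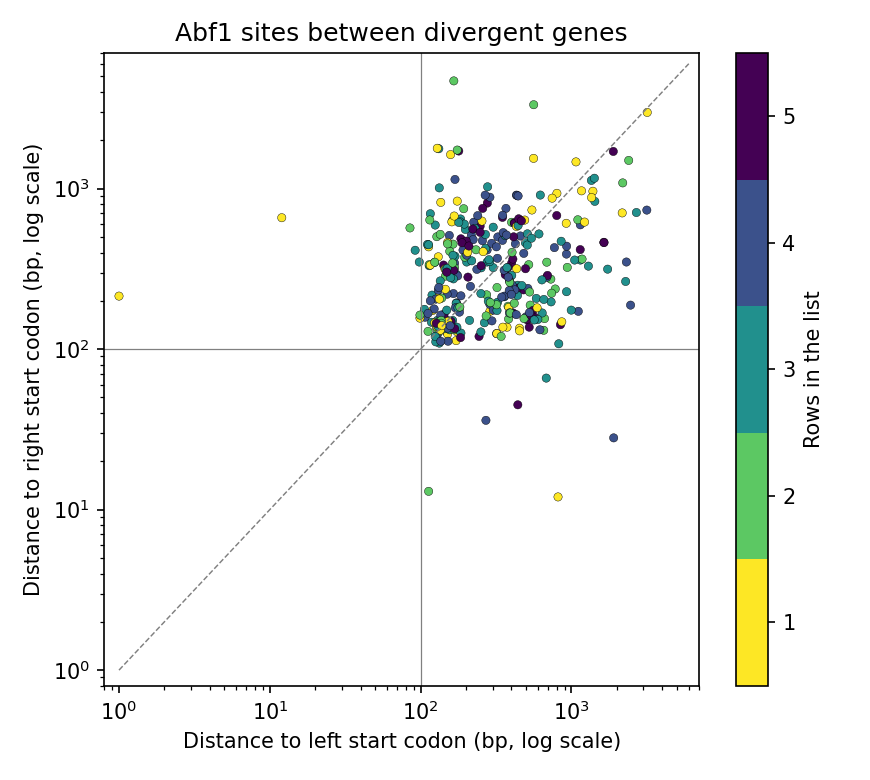
Distance in bp to the left start codon (x axis, log scale) and to the right start codon (y axis, log scale) for each of the 340 Abf1 sites, coloured by the number of rows that listed the site. Grey lines mark 100 bp and the dashed line equal distances. All but 13 of the points lie beyond both 100 bp lines.

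Between the 2 start codons, sites were concentrated towards the centre. With each region divided into 10 equal parts from left to right, the numbers of sites were 8, 13, 42, 53, 59, 55, 46, 44, 14 and 6. The central 33.3% of the region held 186 of 340 sites (54.7%, 49.2 to 60.1; exact binomial test, two-sided, adjusted p = 2.05e-15). The 33.3% stands for an even spread over the whole region, whereas only 13 of the 340 sites were under 100 bp from a start codon. The test is thus not separate from that gap, and whether sites were central beyond it was not tested. The share in the central part differed by region length. In regions under 400 bp it was 71 of 75 sites (94.7%, 86.9 to 98.5), and median distances to the nearer and farther start codons were 130.5 and 164.5 bp. In regions of 400 to 600 bp it was 33 of 71 (46.5%, 34.5 to 58.7), in those of 600 to 1000 bp 47 of 114 (41.2%, 32.1 to 50.8), and in longer ones 35 of 80 (43.8%, 32.7 to 55.3). The interval excluded 33.3% for regions under 600 bp, and in the 2 classes of longer regions it did not. These intervals are not separate from the gap near start codons either. With 100 bp left out at each end of a region under 400 bp, what remains is mostly its central part. The nearer start codon moved away less than the farther one as regions lengthened, with medians of 223.5 and 509.5 bp in regions of 600 to 1000 bp.

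The motif had no fixed direction towards a gene. It read towards the nearer gene in 161 of 340 sites (47.4%, 41.9 to 52.8; exact binomial test, two-sided, adjusted p = 0.357). It was on the plus strand in 188 (55.3%, 49.8 to 60.7; exact binomial test, two-sided, adjusted p = 0.0863).

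The share of divergent regions with a site was larger in the longer classes. No test was run on this. A site was present in 1 of 110 regions under 200 bp (0.909%, 0.0230 to 4.96) and in 71 of 480 regions of 200 to 400 bp (14.8%, 11.7 to 18.3). It was present in 62 of 285 regions of 400 to 600 bp (21.8%, 17.1 to 27.0), 89 of 394 of 600 to 1000 bp (22.6%, 18.6 to 27.0) and 65 of 258 longer ones (25.2%, 20.0 to 31). From the shortest class to the longest, the regions held 0.0640, 0.538, 0.499, 0.385 and 0.169 sites per kb. The density was thus lowest in regions under 200 bp, highest at 200 to 400 bp and lower again in longer ones. Regions with a site had a median length of 637 bp (quartiles 406.5 and 944), and those without one 489 bp (275 and 770.5).

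The deposited score, which has no definition in the labels or the list, was higher for these sites than for sites inside genes. It ranged from 10.6182 to 16.1273, with a median of 12.6545 (quartiles 11.7773 and 13.5636), against a median of 11.5455 (10.9636 and 12.3137) for sites inside protein-coding genes. At or above the median of all Abf1 sites, 11.9818, lay 238 of 340 sites (70%, 64.8 to 74.8) and 219 of 656 sites inside genes (33.4%, 29.8 to 37.1). The difference was 36.6 points (30.3 to 42.4, Fisher's exact test, two-sided, adjusted p = 1.59e-27). Sites between tandem genes had a median of 12.6, and 221 of 348 (63.5%, 58.2 to 68.6) were at or above the overall median. The divergent sites were 6.49 points above these (-0.548 to 13.4), which did not pass the test (Fisher's exact test, adjusted p = 0.0905).

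**Figure D3:**
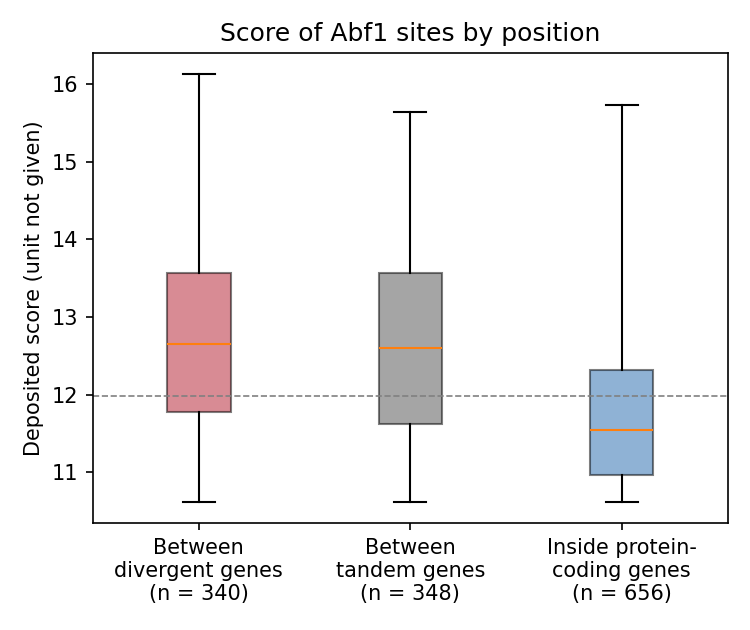
Deposited score (y axis, unit not given) of Abf1 sites between divergent genes, between tandem genes and inside protein-coding genes. Boxes span the quartiles with the median as a line, whiskers reach the lowest and highest site, and the dashed line is the median of all Abf1 sites, 11.9818; the box of sites inside genes is centred below it and the other boxes above it.

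Identical rows were repeated in the list up to 5 times, and what a repeat stands for is not stated. The divergent sites were listed 1 to 5 times in 56, 57, 94, 83 and 50 cases, a mean of 3.04 rows. Sites between tandem genes had a mean of 2.57 rows and those inside genes 2.63. At least 2 rows listed 284 of 340 divergent sites (83.5%, 79.2 to 87.3), 259 of 348 tandem sites (74.4%, 69.5 to 78.9) and 465 of 656 sites inside genes (70.9%, 67.2 to 74.3). The divergent sites were 9.10 points above the tandem ones (3.01 to 15.1, Fisher's exact test, two-sided, adjusted p = 0.00746) and 12.6 points above those inside genes (7.19 to 17.7, adjusted p = 2.86e-05). On chromosomes V to IX alone these differences were 3.34 points (Fisher's exact test, adjusted p = 0.904) and -0.270 points.

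Score varied little with the number of rows. From 1 to 5 rows, the median scores of the divergent sites were 12.4727, 12.6182, 12.6728, 12.8364 and 12.7546. The median distance to the nearer start codon increased over the same order, at 148, 167.5, 183, 201.5 and 227.5 bp. The share of sites listed at least 2 times was 74 of 99 (74.7%, 65.0 to 82.9) at 100 to 150 bp from the nearer start codon. It was 71 of 80 (88.8%, 79.7 to 94.7) at 150 to 200 bp, and 115 of 121 (95%, 89.5 to 98.2) at 200 to 500 bp. Of the 27 sites at 500 bp or more it was 15 (55.6%, 35.3 to 74.5). The share was thus highest at middle distances and lowest far from both genes, while the median score of the same bins beyond 100 bp stayed between 12.55 and 12.77. At 200 to 500 bp the tandem sites had 102 of 133 (76.7%, 68.6 to 83.6) and divergent Reb1 sites 111 of 124 (89.5%, 82.7 to 94.3). These bins were chosen after their values were seen and are given without a test.

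**Figure D4:**
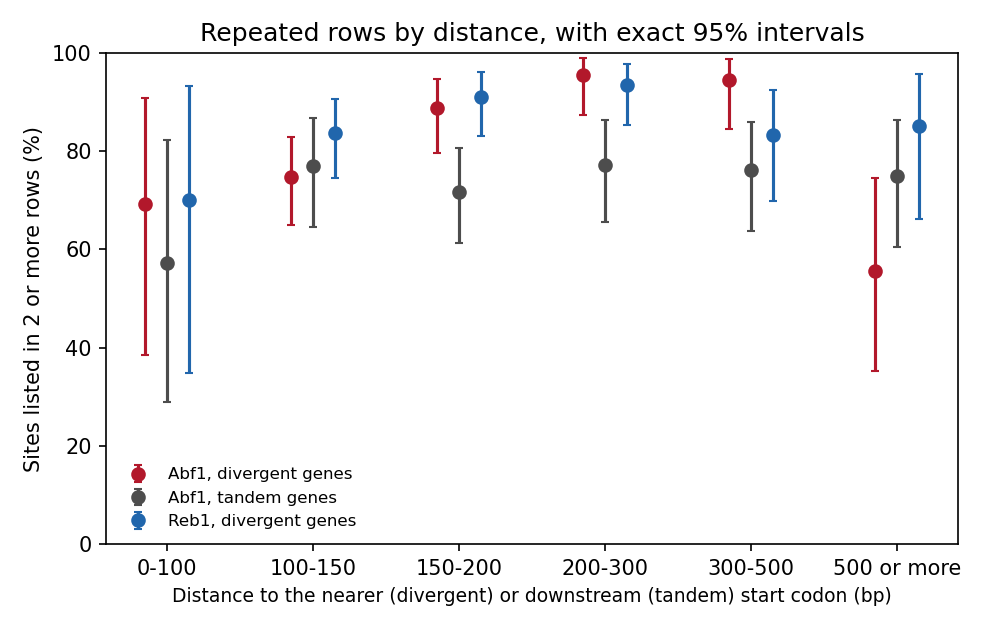
Share of sites listed in at least 2 rows (y axis, percent, with exact 95% intervals) by distance in bp to the nearer or, for tandem genes, downstream start codon (x axis), for Abf1 sites between divergent genes, Abf1 sites between tandem genes and Reb1 sites between divergent genes. The divergent Abf1 sites lie at 95.5% at 200 to 300 bp and at 55.6% at 500 bp or more.

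The highest score belonged to a site between GEP3 and NOC2, a gene for nuclear export of ribosomal subunits (XV:727338-727353, minus strand, score 16.1273, 4 rows). Its region was 277 bp long, and the site centre was 112 bp from the GEP3 start codon and 167 bp from that of NOC2. The site between RIX7, which encodes an ATPase of large ribosomal subunit assembly, and IRC19 scored 15.6364, at 152 and 112 bp (XII:73290). That between SAM37, for sorting of outer mitochondrial membrane proteins, and RNA14, for messenger RNA cleavage, scored 15.5455, at 112 and 129 bp (XIII:392619). These 3 sites were each within 200 bp of both start codons.

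Other sites among the 10 highest were nearer to one gene. The site between SET3, a histone deacetylase complex subunit, and GMH1 scored 15.7455, at 114 and 336 bp (XI:499939). The site between HUA1 and YTA7, a chromatin-bound bromodomain ATPase, scored 15.1818, at 125 and 593 bp (VII:1026770). The site between IME1, the master inducer of meiosis, and RPL43B, a large ribosomal subunit protein gene, scored 14.9455 (X:608110). It was 188 bp from RPL43B and 2467 bp from IME1, and thus within 500 bp upstream of the ribosomal protein gene only.

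The remaining sites of the 10 were each at least 164 bp from both start codons. The site between SWI3, a SWI/SNF remodeler subunit, and KRE9, for cell wall glucan, scored 15.2545, at 321 and 242 bp. That between ATP7, an ATP synthase subunit, and PUT3, the activator of proline utilisation, had the same score, at 345 and 211 bp. The site between VTI1, a vesicle SNARE, and CIK1, a kinesin partner, scored 15.1818, at 164 and 384 bp. The site between DPP1, a lipid phosphatase, and ZIP1, of the synaptonemal complex, scored 14.9273, at 401 and 617 bp. The site between HSP82, a cytosolic Hsp90 chaperone, and YAR1 had the same score, at 656 and 204 bp (XVI:99273, 3 rows), and came after it only by the order of chromosomes. None of the 10 was listed in 1 row or in 5, and each had 2 to 4.

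Among the 50 sites listed 5 times, the highest score was 14.8727, between PMP2, a proteolipid of the plasma membrane proton pump, and GTT3 (V:123476, 555 and 174 bp). The site between SSA1, a cytosolic Hsp70 chaperone, and EFB1, the exchange factor of translation elongation, scored 14.7818 (I:141824, 401 and 343 bp). That between YET3 and BDF2, a bromodomain protein, scored 14.4, at 410 and 168 bp. The site between UME6, the repressor of early meiotic genes, and MSS4, a phosphoinositide kinase, scored 14.1818, at 380 and 323 bp. Sites between GPP2, a glycerol phosphatase, and THO1 (14.1273, 420 and 609 bp) and between SLM4 and ECM33, a cell wall protein (13.8909, 248 and 583 bp), completed the 6. All 6 were more than 150 bp from both start codons.

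Low scores occurred with few and with many rows. The lowest, 10.6182, was a site listed once between FRS2, the phenylalanyl-tRNA synthetase alpha subunit, and GAT1, a nitrogen-regulated activator (VI:95138, 136 and 821 bp). Sites between CDC3, a septin, and NKP2, a kinetochore protein, and between IRC15 and SWI1, a SWI/SNF subunit, both scored 10.6545 and were both listed 5 times.

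The most central sites within 200 bp of both start codons were equidistant to within 3 bp. The site between PDC2, a regulator of pyruvate decarboxylase genes, and STN1, of telomere capping, was 181 and 180 bp away (score 11.5636). That between DBP1, an RNA helicase, and MRP51, a mitochondrial ribosomal protein, was at 182 and 183 bp (14.2364). The site between SNF8, of the ESCRT-II complex, and HAT1, a histone acetyltransferase, was at 138 and 140 bp (13.7091), and that between RSM24, another mitochondrial ribosomal protein, and NGG1, of SAGA, at 149 and 152 bp (11.6545). The site between RPC25, an RNA polymerase III subunit, and LTV1, of small ribosomal subunit assembly, was equally central, at 152 and 149 bp (11). Scores of the 58 sites within 200 bp of both start codons had a median of 12.7, against 12.5455 for the 27 sites over 500 bp from both. Rows averaged 2.93 in the 58 sites and 2.19 in the 27.

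The shortest region with a site was the 124 bp between MSS116, a mitochondrial RNA helicase gene, and YDR194W-A, where the site was 113 and 13 bp from the start codons (score 13.6364, 2 rows). Next came 213 bp between RUB1, a ubiquitin-like protein, and MTQ2, a release factor methyltransferase, with a site 1 bp from RUB1, the member nearest to the edge of a gene. Outside the rule, 3 sites lay up to 10 bp inside a gene that faces a divergent region, at ATP23-YNR021W (score 14.5818, 5 rows), SSL2-CCT2 (10.9091, 2 rows) and SRY1-JEN1 (11, 1 row). Regions of 235 bp at RNA1-TAF9, a Ran GTPase activator and a TFIID subunit, and of 239 bp at SAM37-RNA14 followed. The longest regions were 6166 bp at YEL073C-RMD6, with a site 3183 and 2985 bp away, and 4856 bp at DPS1-BPT1. In that region the site was 166 bp from DPS1, the aspartyl-tRNA synthetase gene, and 4692 bp from BPT1, a vacuolar transporter.

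Most regions held a single site. There was 1 site in 243 regions, 2 in 39, 3 in 5 and 4 in 1. The region with 4 was between PNC1, the nicotinamidase that feeds NAD salvage, and VIR1. Its sites started at 428303, 428328, 428343 and 428378 on chromosome VII, all on the plus strand, with scores of 13.6182, 12.7636, 12.4182 and 13.7636 and 5, 5, 4 and 3 rows. All 4 were 216 to 291 bp from VIR1. The regions with 3 were YOR343C-YOR343W-A and those that follow. One was ACS1-FLC2, with acetyl-CoA synthetase, where the sites spread over starts 45317, 45439 and 45497 on chromosome I. In RLI1-UBC13, a ribosome recycling factor and a ubiquitin-conjugating enzyme, the starts 628958, 628961 and 628969 on chromosome IV overlapped. In MAE1-TFA1, malic enzyme and a TFIIE subunit, the starts were 385228, 385260 and 385403 on chromosome XI. In SRY1-JEN1, with the lactate transporter, they were 18893, 20728 and 21492 on chromosome XI in a region of 3894 bp.

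Neighbouring sites of 1 region were mostly close. Of the pairs of adjacent sites, 31 were up to 50 bp apart, 5 were 51 to 100 bp apart and 16 were farther. Of the 31 close pairs, 28 were listed the same number of times, against 5 of the 16 pairs over 100 bp apart. The other Abf1 sites gave 62 of 68 and 27 of 97 on the same distances, and divergent Reb1 sites 30 of 31 and 4 of 13. Strand was shared by 18 of the 31 close pairs. Among the 10 pairs at 15 to 19 bp, strand was shared by 9, which included ANB1-CYC1 (a translation factor and cytochrome c), RPO31-RPT5 (an RNA polymerase III subunit and a proteasome ATPase) and BRX1-MDM20. Of the 6 pairs up to 12 bp apart, which overlap, 1 shared its strand, and GPP2-THO1 was one on opposite strands 2 bp apart. Among the other Abf1 sites strand was shared by 39 of 68 close pairs. At 15 to 19 bp it was shared by 5 of 5 and up to 12 bp by 19 of 38. Divergent Reb1 sites gave 21 of 31, 3 of 6 and 3 of 3 in the same order. The classes of spacing were chosen after the distances were seen.

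ABF1, the 1 divergent gene on the list of general regulatory factors, had sites of its own product upstream. The 694 bp between RAD27, a flap endonuclease gene, and ABF1 held 2 sites on chromosome XI. One was 322 bp from the ABF1 start codon (226241, minus strand, score 13.3455, 3 rows) and the other 169 bp (226394, minus strand, score 11.4364, 4 rows).

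By gene function, the sharing of a region with a site was read against the 18.9% of all divergent genes. Genes were grouped in 22 lists by symbol, and the counts are descriptions with exact 95% intervals and no test. The intervals take genes as independent, although genes of the same list can share a region and its site. They were not adjusted for the number of lists. A listed gene was present in 153 of 288 regions with a site (53.1%) and in 670 of all 1527 divergent regions (43.9%). Of the listed genes with a site, 104 of 189 were the nearer gene of their highest-scoring site.

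**Figure D5:**
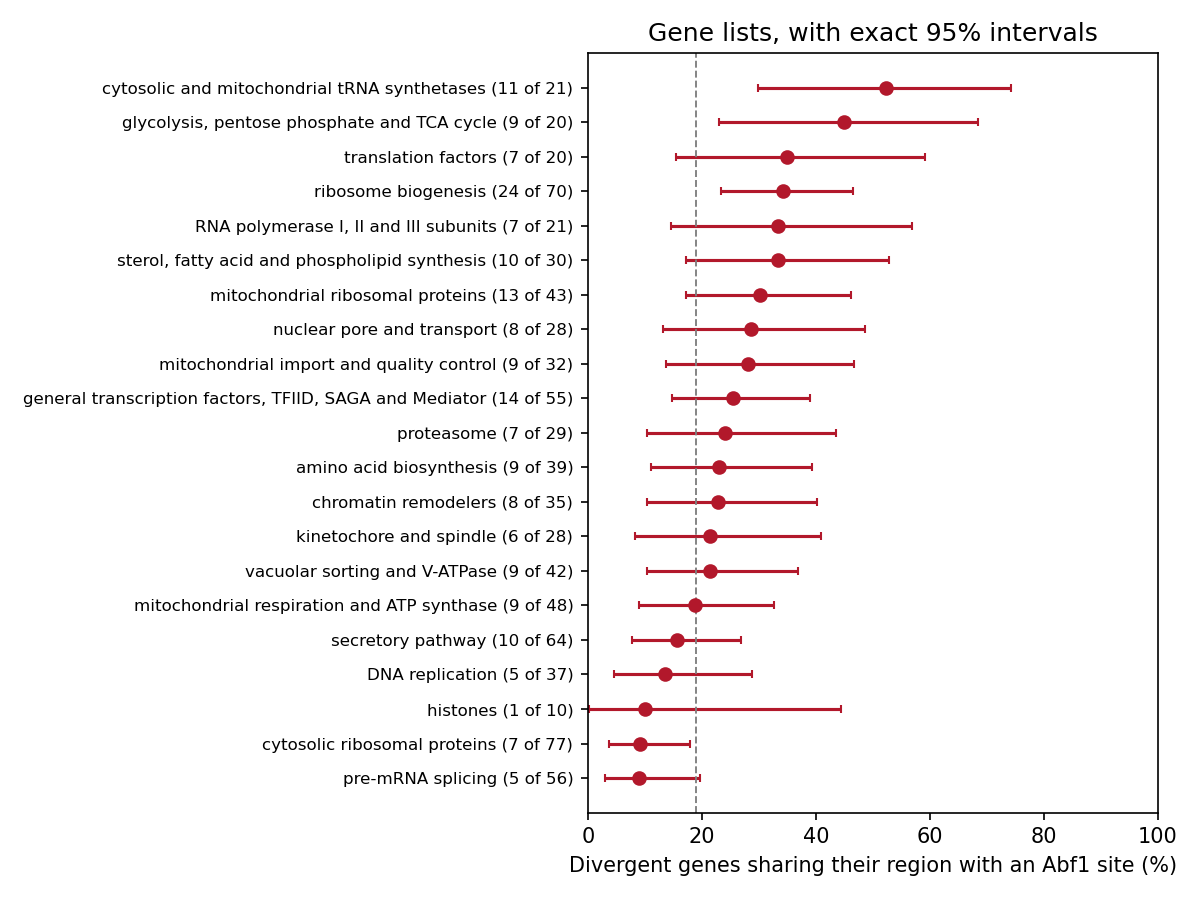
Share of the divergent genes of 21 lists (all but the general regulatory factors) that shared their region with an Abf1 site (x axis, percent, with exact 95% intervals), with the counts beside the list names (y axis); the dashed line is the 18.9% of all divergent genes. The tRNA synthetases are at the top with 11 of 21 genes and pre-mRNA splicing at the bottom with 5 of 56.

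Genes of protein synthesis differed widely between lists. Of the tRNA synthetases, which charge transfer RNAs with amino acids, 11 of 21 divergent genes (52.4%, 29.8 to 74.3) had a site, a median of 165 bp from the start codon. The histidyl enzyme gene HTS1 had one at 163 bp, in the region it shares with the remodeler gene ARP7 (score 13.4). The tyrosyl enzyme gene TYS1 had one at 130 bp, shared with TFG1, of TFIIF, at 125 bp (13.3273), and the threonyl enzyme gene THS1 one at 174 bp (13.2727). DED81 and YHR020W, for the asparaginyl and prolyl enzymes, faced each other across 437 bp with a site 165 and 274 bp away. All 11 genes had a site within 500 bp.

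Ribosome biogenesis genes had a site in 24 of 70 cases (34.3%, 23.3 to 46.6), all 24 within 500 bp and at a median of 163.5 bp. Besides NOC2 and RIX7, described above, these included RRP3, an RNA helicase of small subunit assembly. It faced another gene of the list, SSF1, across 297 bp, with a site 136 and 163 bp away (VIII:229165, score 14.3091, 4 rows). NSA2 and LCP5, also both on this list, shared a site at 175 and 128 bp (V:414346, score 12.8182, 1 row). Translation factors had a site in 7 of 20 cases (35%, 15.4 to 59.2). These included the initiation factor SUI1 at 388 bp (score 14.8), EFB1 at 343 bp and the ribosome-bound ATPase ARB1 at 323 bp (14.1818).

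Mitochondrial ribosomal protein genes had a site in 13 of 43 cases (30.2%, 17.2 to 46.1), among them MRP51 at 183 bp. The cytosolic ribosomal protein genes, most of which are known targets of another general regulatory factor, Rap1, had one in 7 of 77 cases (9.09%, 3.73 to 17.8). Besides RPL43B these included RPS25B at 924 bp (score 13.2545) and RPS28A at 157 bp (12.2909), which shared its site with the glutaminyl-tRNA synthetase gene GLN4 at 140 bp. Among these lists of protein synthesis, the lower bound for the tRNA synthetases and for ribosome biogenesis was above 18.9%. The upper bound for cytosolic ribosomal proteins was below it.

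In transcription, 7 of 21 RNA polymerase subunit genes (33.3%, 14.6 to 57.0) had a site. RPC40, shared by polymerases I and III, had one at 124 bp (score 13.4), RPO31, the largest polymerase III subunit, at 371 bp (13.3455), and RPC19 at 152 bp (12.6182). Of the genes for general transcription factors, TFIID, SAGA and Mediator, 14 of 55 (25.5%, 14.7 to 39.0) had a site, among them TAF5 at 165 bp (14.4545). Chromatin remodeler genes had one in 8 of 35 cases (22.9%, 10.4 to 40.1), and SWI3 and ARP8 (124 bp, score 13.4727) were among the highest scoring. Of the histone genes 1 of 10 had a site, HTZ1, the H2A variant gene, at 929 bp. Pre-mRNA splicing genes had one in 5 of 56 cases (8.93%, 2.96 to 19.6), including SMX2 at 321 bp, in the region of LPD1, and PRP46 at 135 bp (13.4545).

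Of the genes of glycolysis, the pentose phosphate pathway and the TCA cycle, 9 of 20 (45%, 23.1 to 68.5) had a site. The lower bound was above the 18.9% of all divergent genes here too. In this list 5 of the 9 had a site within 500 bp, and the regions of the 9 had a median length of 872 bp. LPD1, a subunit of mitochondrial dehydrogenases, had its highest-scoring site at 252 bp (14.0727), whereas that of ENO1, enolase, was at 1630 bp and 158 bp from the proteasome gene PUP2 on the other side. Genes of sterol, fatty acid and phospholipid synthesis had a site in 10 of 30 cases (33.3%, 17.3 to 52.8), with 6 within 500 bp. SLC1, an acyltransferase, had one at 150 bp (14.7273) and LCB1, a serine palmitoyltransferase subunit, at 350 bp (14.4545). LCB5, a sphingoid base kinase, had one at 618 bp, 225 bp from the chaperonin gene HSP60. The lists not yet given ranged from 28.6% for nuclear pore and transport (8 of 28, NUP133 at 135 bp with score 14.0364) to 13.5% for DNA replication (5 of 37, POL31 at 125 bp with score 14.0364). In respiration it was 9 of 48 (18.8%, 8.95 to 32.6), near the share of all divergent genes, with the site of COX23, at 36 bp, among those under 100 bp.

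Reb1 sites were present in 62 of the 288 regions (21.5%), which were 21.4% of the 290 divergent regions with a Reb1 site. Of all 1527 divergent regions, 19% held a Reb1 site. In 26 of the 62 the closest Reb1 and Abf1 sites were up to 50 bp apart, the closest at MIP1-VMA4 (2 bp), RIB1-HEK2 (10 bp), ANB1-CYC1 (12 bp) and ARB1-PHM8 (13 bp).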

How the data were processed

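The values used were 1 list of Abf1 sites and 1 of Reb1 sites, giving the position, strand and score of each. The authors deposited the score without defining it, and scores were compared here within the Abf1 list only. Reb1 scores served only to select Reb1 sites in some settings, as in that at or above the median score (193 of 342 divergent Reb1 sites). The submitters' processing notes name Bowtie, sacCer3 and R64. Peak caller, motif scanner, thresholds and pooling were not given in the sources used here. Identical rows (3699 Abf1 and 2808 Reb1 in all) were counted once as a site. From listed start to end, Abf1 sites span 15 bp and Reb1 sites 9 bp. Positions are as deposited, with no statement of whether they begin at 0 or 1.

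Sites were placed by their centre in a RefSeq table of the R64 build with 6431 nuclear genes, of which 6002 code for protein. Genes extend over their coding part only. Their strand came from the systematic name, and 1 gene had none. Shares have exact (Clopper-Pearson) 95% intervals and differences Newcombe intervals. Site classes were compared with Fisher's exact test (6 tests) and positions and strands with the exact binomial test (3 tests), two-sided, each family with Benjamini-Hochberg adjustment at 0.05. Sites that share a region are not independent. The placing of sites between divergent genes and inside protein-coding genes was checked on simulated sites. That of sites between tandem or convergent genes was not.

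The sites and gene lists were chosen with earlier results of these data known, and list patterns were corrected after the tables had been read. Lists go by symbol. Named pairs were those at the 10 highest and 3 lowest scores, 6 sites in most rows, 5 regions with most sites, 4 most central sites, 4 shortest and 2 longest regions, highest-scoring listed genes, pairs on 1 list, and 4 closest Reb1 sites. Other genes, ABF1 included, were named after their values were seen. Planned tests of motif sequence were not run, since no sequence was used here. The tools were scipy 1.17.1, pandas 2.3.3, numpy 2.4.6 and matplotlib 3.10.9 in Python 3.11.15.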

Additional observations from a re-analysis of the deposited data

How the results depend on the processing

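Of the settings tried for the main results, 58 were classed as the same. For tested results this meant the same direction and side of the threshold. The 58 also include counts of regions with a site, which had no test. That count was 239 of 1527 (15.7%) with sites in at least 2 rows and 211 (13.8%) at or above the median score, against 288 (18.9%). Counting starts from 0 left every score and row share as it was. The window share minus that of tandem sites missed the threshold of the exact test with sites in at least 2 rows (7.43 points, adjusted p = 0.172), at or above the median score (10.6, 0.0502), on chromosomes V to IX (11.2, 0.519) and with 50 to 250 bp (5.82, 0.138), and was -26.9 with the farther start codon of the divergent sites, a different measure from that of the tandem sites. Minus that of divergent Reb1 sites it was 0.442 at or above the median score, 0.367 with overlapping sites merged, and 3.02 with the farther start codon of both (Fisher's exact test, adjusted p = 0.292). By the same exact tests, on chromosomes V to IX the row share was 3.34 points above tandem sites (adjusted p = 0.904) and -0.270 against sites inside genes, the motif read towards the nearer gene in 50.0%, the plus strand held 63.5% (adjusted p = 0.0398), and 63 regions had a site. At or above the median score the plus strand held 57.1% (exact binomial test, adjusted p = 0.0483). With 1 site per region the score share was 7.81 points above tandem sites (Fisher's exact test, adjusted p = 0.0441). This setting kept 288 of 340 divergent and 330 of 348 tandem sites. Each divergent region with a site at or above the median score kept such a site. The test thus cannot separate the difference from this selection. The cause was not tested for any of these. Gene list shares stayed inside their interval in 144 settings and left it in 8. Of the 8, 7 were on chromosomes V to IX, where lists were small (tRNA synthetases 6 of 7, cytosolic ribosomal proteins 0 of 19, vacuolar sorting 0 of 9, DNA replication 0 of 3, RNA polymerase 0 of 1). Keeping 1 site per region could not change a list share, since each region kept a site. Merging overlapping sites or counting starts from 0 left every list share as it was. These settings are therefore no check of the lists. No paired analysis was possible because the lists carry no sample or replicate. The settings counting starts from 0, 1 site per region, and the list shares under each setting were chosen after seeing the data. Settings on motif sequence were not run, since no sequence was used here.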

Other observations

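Of the 1422 divergent regions with no other gene between their protein-coding neighbours, 268 (18.8%) had an Abf1 site, near the 18.9% of all 1527. In 20 of the divergent regions with an Abf1 site, another gene that does not code for protein lay between the protein-coding neighbours. These regions held 21 of the 340 sites (6.18%). The genes were 14 for transfer RNAs, which RNA polymerase III transcribes, in 13 regions, 5 for small nucleolar RNAs in 4 regions, 2 entries for the U5 small nuclear RNA, 2 other noncoding RNAs and 2 pseudogenes. The shortest distances from a site to the end of a transfer RNA gene were 31 bp in TIM10-STP2, 39 bp in YMR050C-FAR3, 41 bp in KAE1-GAP1 and 46 bp at SUP54 in HEM2-YGL039W. The high-scoring site of IME1-RPL43B was 693 bp from IRT1, a noncoding RNA whose transcription is known to repress IME1. ZOD1, a bound but little transcribed polymerase III locus, lay 93 bp from the site of RPM2-UFO1.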
